A study of Mus musculus with 8 samples.

Results

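The ubiquitin-conjugating enzymes and the ubiquitin-specific proteases were examined in kidney RNA of *Scube3* mutant mice. Members were taken by symbol from the array annotation: every gene whose name starts with Ube2, or with Usp followed by a digit, except *Usp18* and *Usp9y*. The rule gave 72 genes with 115 probes, 27 Ube2 genes with 45 probes and 45 Usp genes with 70 probes, of 16593 named genes and 25697 probes on the array. It used names alone and no measured value, but members were chosen with earlier results of these data known. *Usp6nl* came in by its name although it encodes a GTPase-activating protein for Rab proteins and not a deubiquitinase, and the symbols *Ube2u* and *Ube2dnl2* belong to less well characterized relatives.

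Kidneys came from 4 wild type and 4 homozygous *Scube3* N294K mutant males of the C3HeB/FeJ strain, all 29 weeks old. The mutants carried on both copies a recessive missense allele of *Scube3*, which encodes a secreted and cell surface glycoprotein. The allele came from a chemical mutagenesis screen with ethylnitrosourea, so the comparison rests on 1 mutant line. Each mouse gave 1 array, and the labels list no treatment and no batch. All values below are normalized intensities on the log2 scale, and all differences are mutant minus wild type.

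Ubiquitin is attached to proteins by a relay in which an activating enzyme (E1) passes it to a conjugating enzyme (E2), from which a ligase (E3) directs it to the substrate. The E2 influences which kind of ubiquitin chain is built, and deubiquitinases such as the Usp proteases cut chains off again. In the kidney this system is best known for setting how long transporters, channels and receptors stay at the cell surface.

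Both families held genes with lower transcript levels in the mutants, and in neither was a gene called higher. A gene is represented by its brightest probe, a probe counts as above background when its detection p was under 0.05 on at least 4 of the 8 arrays, and a gene is called when its adjusted p from limma, corrected over all 12914 probes above background, is under 0.05. Of the 21 Ube2 genes above background, 4 were called lower (19.0%) and 17 were not called. Of the 28 Usp genes above background, 4 were called lower (14.3%) and 24 were not called. Over all 9000 genes above background, 7.86% were called lower and 8.4% higher. At an unadjusted p under 0.05, 5 Ube2 genes were lower and 1 was higher, and 10 Usp genes were lower and 5 higher, beside 15.4% lower and 18.6% higher of all genes. SAM at the thresholds of the study's methods called 1 Usp gene and no Ube2 gene lower, beside 0.554% of all genes, and no member higher (0.301% of all genes). On its error rate alone SAM passed 4 of 27 Ube2 and 5 of 45 Usp genes as lower, beside 4.69% of all genes.

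The median log2 difference was -0.09 for the Ube2 genes (range -0.33 to 0.25) and -0.17 for the Usp genes (range -0.62 to 0.28), against 0.03 for all genes. The difference was negative in 14 of 21 Ube2 genes (66.7%), in 21 of 28 Usp genes and in 44.5% of all genes. All 4 mutants lay below all 4 wild type mice in 4 Ube2 genes and in 6 Usp genes, beside 11.1% of all genes. The opposite order held for no Ube2 gene and for 3 Usp genes, beside 13.4% of all genes. These counts describe the families and no test was made of a family as a whole.

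**Figure D1:**
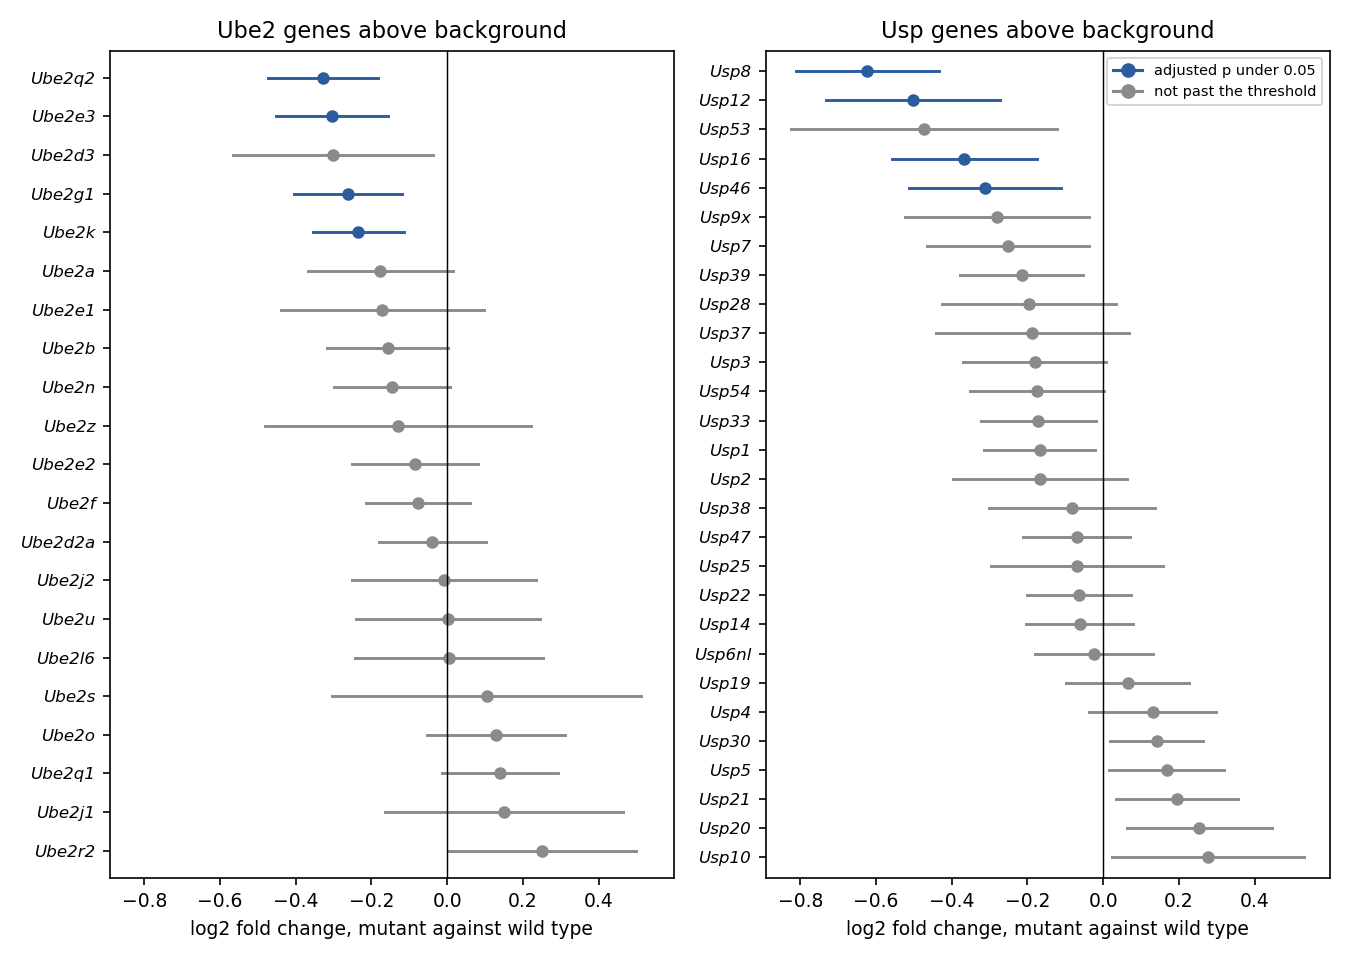
Log2 difference between mutant and wild type for the 21 Ube2 genes (left) and the 28 Usp genes (right) above background, each at its brightest probe, with 95% confidence intervals (4 mice per genotype). The 4 genes of each family called lower are in blue and run from -0.24 to -0.62, and the genes with values above 0 are all grey.

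The arrays were alike in the number of probes detected, whereas the median scanned intensity of mutant replicates 1, 2 and 4 lay below every wild type array. Between 12602 and 13127 probes were detected per array, and the median scanned intensity ran from 133.2 to 138.8 in wild type and from 127.5 to 134.7 in mutant mice. All 12 markers of the proximal tubule, thick ascending limb and distal convoluted tubule with a probe were detected in every mouse, and in 3 marker groups more than 1 gene was called. The marker counts are to be read beside the 7.86% of all genes called lower and 8.4% called higher. Of 4 thick ascending limb genes above background 3 were lower in the mutants, with *Slc12a1* changed most (-1.14, adjusted p = 0.0028 by limma). *Kcnj1* went the other way at 0.23 (adjusted p = 0.15) and was not called. Summed log2 levels of the 4 were 40.12 to 41.09 in wild type and 38.32 to 39.49 in mutant mice. Of 5 urothelial genes above background 4 were higher (summed levels over the 6 listed genes 32.11 to 33.33 and 34.54 to 36.77), and of 3 distal convoluted tubule genes 2 were higher (30.32 to 31.21 and 31.11 to 31.54). Single markers of proximal tubule, podocytes and endothelium were lower (*Lrp2*, *Wt1* and *Cdh5*), and 1 of principal cells was higher (*Scnn1b*). The other 4 proximal tubule markers had positive differences from 0.01 to 0.21 and were not called. None of the 2 leukocyte and 2 red blood cell genes above background was called. The leukocyte gene *Cd3e*, not above background, was detected on 3 mutant arrays and on no wild type array. No fat marker was above background, with *Adipoq* at 6.47 in mutant replicate 3 and at 4.53 to 5.21 in the other mice. The part of these shifts in the differences of Ube2 and Usp genes was not tested, and in whole kidney fewer cells of a type and less RNA per cell cannot be told apart.

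Among the E2 enzymes that work with many ligases, *Ube2e3* was lower in the mutants. Its product is a nuclear E2 of the UBE2E group. The levels were 8.44, 8.36, 8.28 and 8.33 in the wild type mice and 8.09, 7.94, 8.02 and 8.14 in the mutants. The lowest wild type mouse lay above the highest mutant. The difference was -0.30 ± 0.07 (SE, n = 4 per genotype, limma adjusted p = 0.017), which is 1.24-fold lower, and a second probe gave -0.27 ± 0.06 (adjusted p = 0.015). The other members of this group above background, *Ube2d2a*, *Ube2d3*, *Ube2e1* and *Ube2e2*, had negative differences from -0.30 to -0.04 and were not called. *Ube2d3*, one of the most widely used E2s, had the largest of these, -0.30 ± 0.12 (adjusted p = 0.105), and its mutant level spread from 6.86 to 7.45 against 7.41 to 7.63 in wild type. The 2 probes of *Ube2d2a* gave -0.04 and 0.09.

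*Ube2g1* and *Ube2k*, E2s whose ubiquitin chains mark proteins for the proteasome, were both lower. *Ube2g1* acts with cullin-RING ligases. Its levels were 9.41, 9.41, 9.44 and 9.42 in wild type and 9.14, 9.21, 9.25 and 9.02 in mutant mice. The wild type mice were nearly alike and every mutant was lower. The difference was -0.26 ± 0.06 (adjusted p = 0.024, limma, n = 4 per genotype), and the other probes gave -0.35 ± 0.08 (adjusted p = 0.016) and -0.44 ± 0.08 (adjusted p = 0.0081). With 1 mouse left out, the call at the brightest probe was lost without wild type replicate 1 (-0.27, adjusted p = 0.051), replicate 2 (-0.27, adjusted p = 0.053) or replicate 3 (-0.26, adjusted p = 0.052), and without mutant replicate 1 (-0.26, adjusted p = 0.0505). All 3 of its probes were called, and the 250 bases upstream of its RefSeq start are printed with the other upstream sequences.

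*Ube2k*, whose product is known for binding huntingtin, had levels of 9.71, 9.68, 9.75 and 9.76 in wild type and 9.46, 9.51, 9.53 and 9.46 in mutant mice. The genotypes did not overlap. The difference was -0.24 ± 0.05 (adjusted p = 0.020, limma), or 1.18-fold lower, and its second probe gave -0.20 ± 0.06 (adjusted p = 0.039). The remaining chain-building E2s above background went in both directions without being called. *Ube2n*, which builds non-degradative chains in signaling and DNA repair, had -0.15 at one probe and 0.22 at a dim probe, and *Ube2r2*, a partner of cullin ligases, had 0.25 ± 0.11 (adjusted p = 0.14). This group held 2 genes called lower of 4 above background, beside 7.86% of all genes, and no test was made of the group.

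*Ube2q2*, an E2 with a long N-terminal extension, had the lowest difference of the family. Its levels were 8.72, 8.85, 8.84 and 8.79 in wild type and 8.47, 8.45, 8.59 and 8.37 in mutant mice. Again no mutant reached the lowest wild type mouse. The difference was -0.33 ± 0.07 (adjusted p = 0.012, limma), or 1.26-fold lower. Its dimmer probes gave -0.31 (adjusted p = 0.10) and -0.09 (adjusted p = 0.53), and on both the genotypes overlapped. Its relative *Ube2q1* had 0.14 ± 0.07 (adjusted p = 0.18) at the brightest probe and -0.09 (adjusted p = 0.53) at a dimmer one.

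The other Ube2 genes were not called. *Ube2a* and *Ube2b*, the mouse counterparts of yeast Rad6 in DNA damage tolerance, had -0.18 and -0.16 (adjusted p = 0.18 and 0.15). *Ube2f*, an E2 for the ubiquitin-like protein NEDD8, gave -0.08, -0.07, -0.16 and 0.02 at its 4 probes. *Ube2l6*, the E2 of the interferon-induced modifier ISG15, had 0.00, and none of 9 interferon-stimulated genes above background was called. The endoplasmic reticulum E2s *Ube2j1* and *Ube2j2* had 0.15 and -0.01. *Ube2s*, *Ube2o*, *Ube2u* and *Ube2z* lay between -0.13 and 0.13. Not above background were *Ube2c*, *Ube2d1*, *Ube2dnl2*, *Ube2g2*, *Ube2t* and *Ube2v2*, of which 3 were detected on no array.

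Among the Usp genes *Usp8* changed most. Its product binds the endosomal adaptor STAM and removes ubiquitin from receptors that are being sorted, including the epidermal growth factor receptor. The levels were 8.36, 8.14, 8.22 and 7.96 in wild type and 7.49, 7.53, 7.61 and 7.56 in mutant mice. The mutants were close together and all lay below the lowest wild type mouse. The difference was -0.62 ± 0.08 (n = 4 per genotype, limma adjusted p = 0.0036), or 1.54-fold lower, and a second probe gave -0.60 ± 0.11 (adjusted p = 0.011). The study lists *Usp8* among its regulated genes from these same mice, so the value is not independent evidence. SAM on the normalized intensities of the authors also passed *Usp8* on its error rate at a fold of 1.596, just under the fold threshold of 1.6. The deubiquitinases *Usp20* and *Usp33*, which act on internalized receptors, went in opposite directions: *Usp20* was at 10.11, 10.33, 10.22 and 10.15 in wild type and 10.31, 10.57, 10.34 and 10.60 in mutant mice (0.25 ± 0.09, adjusted p = 0.069), and *Usp33* had -0.17 ± 0.07 (adjusted p = 0.11). The genotypes overlapped for *Usp20*, whereas every mutant was below every wild type mouse for *Usp33*, and neither was called.

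**Figure D2:**
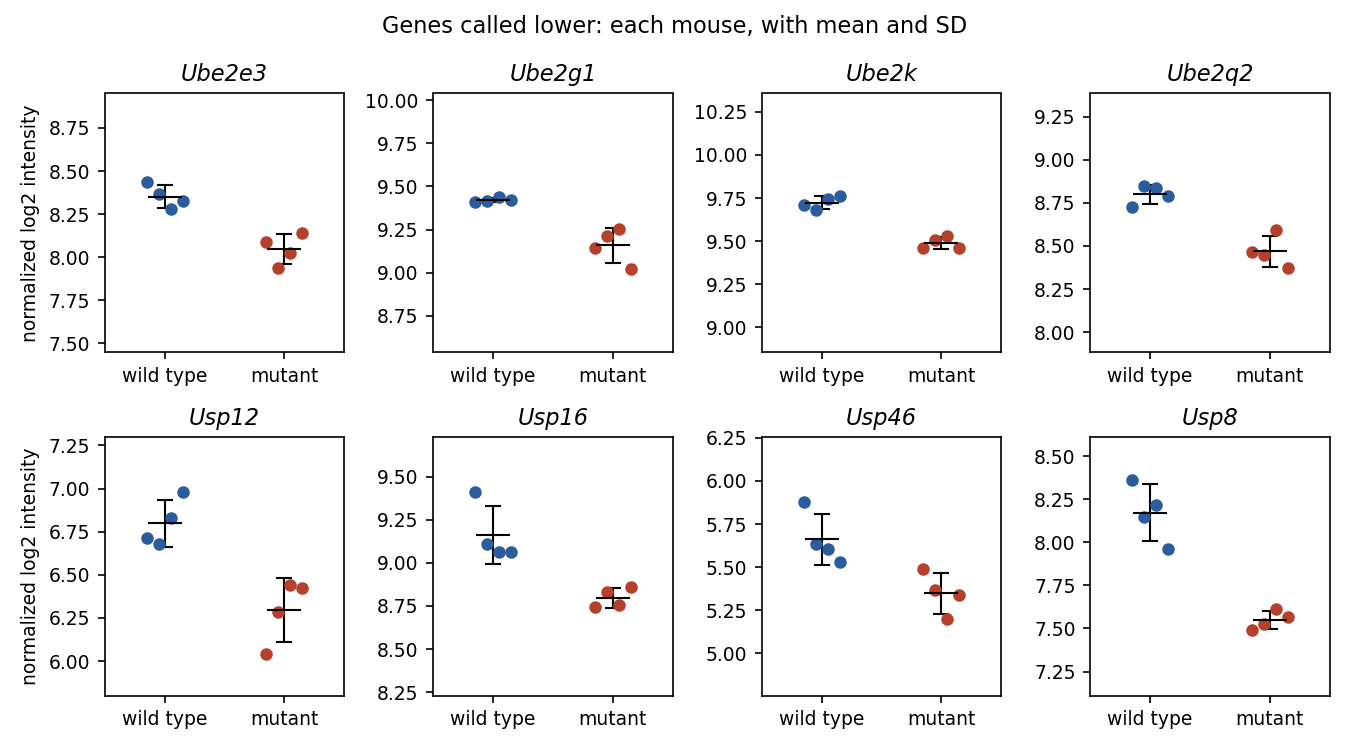
Normalized log2 intensity in each mouse for the 8 genes called lower, with the mean (long bar) and SD of 4 mice per genotype; the axes span the same number of log2 units but start at different levels. In each panel the 4 mutants lie below the 4 wild type mice.

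*Usp1*, *Usp12* and *Usp46* encode relatives that need the WD-repeat protein WDR48 as an activator. At the brightest probe all 3 had every mutant below every wild type mouse, beside 11.1% of all genes. *Wdr48* itself had no probe under that name. *Usp12* was at 6.71, 6.68, 6.83 and 6.98 in wild type and at 6.04, 6.28, 6.44 and 6.43 in mutant mice. The highest mutant lay below the lowest wild type mouse. Its difference was -0.50 ± 0.10 (adjusted p = 0.013, limma), or 1.42-fold lower, whereas a dimmer probe had -0.16 ± 0.10 (adjusted p = 0.29) with overlapping genotypes. *Usp46* was at 5.88, 5.63, 5.61 and 5.53 in wild type and at 5.49, 5.37, 5.20 and 5.34 in mutant mice. Here the genotypes nearly touched. The difference was -0.31 ± 0.09 (adjusted p = 0.042), and this call is the least stable of the 8. It was lost in 9 of 16 alternatives, among them those without wild type replicate 1 (-0.24, adjusted p = 0.088), 2 (-0.32, adjusted p = 0.075) or 3 (-0.33, adjusted p = 0.064) and without mutant replicate 2 (-0.32, adjusted p = 0.075), 3 (-0.26, adjusted p = 0.092) or 4 (-0.31, adjusted p = 0.079), and the difference was -0.10 (adjusted p = 0.11) when no background was subtracted.

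*Usp1* acts on the DNA repair proteins FANCD2 and PCNA. It was at 7.16, 7.28, 7.04 and 7.25 in wild type and at 7.04, 7.00, 7.00 and 7.02 in mutant mice. The highest mutant, at 7.037, lay just under the lowest wild type mouse, at 7.043, and the difference of -0.17 ± 0.07 was not called (adjusted p = 0.11, limma). A dimmer *Usp1* probe had -0.45 ± 0.13 (adjusted p = 0.046), with overlapping genotypes. *Wdr20*, a further cofactor of *Usp12* and *Usp46* products, had -0.29 ± 0.08 (adjusted p = 0.041) and lost this call in 9 of 16 alternatives. These included leaving out wild type replicate 1 (-0.23), 2 (-0.27) or 4 (-0.31) and mutant replicate 1 (-0.30), 2 (-0.31), 3 (-0.30) or 4 (-0.26), with adjusted p from 0.063 to 0.093.

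*Usp16* encodes a deubiquitinase of histone H2A. It was at 9.41, 9.11, 9.06 and 9.06 in wild type and at 8.74, 8.83, 8.75 and 8.86 in mutant mice. Wild type replicate 1 stood above the other 3, and the genotypes did not overlap. The difference was -0.37 ± 0.09 (adjusted p = 0.021, limma), or 1.29-fold lower, and without wild type replicate 1 it was -0.29 (adjusted p = 0.029). The other chromatin enzymes above background were not called. *Usp3* had -0.18 at its brightest probe and 0.04 at its other probe. *Usp22*, a subunit of the SAGA coactivator, had -0.06, and *Usp21* had 0.20 (adjusted p = 0.090). *Usp21* was the only one of these with all mutants above all wild type mice.

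Several other Usp genes had negative differences that limma did not call. *Usp53*, associated with tight junctions, was at 6.02, 5.99, 6.04 and 5.67 in wild type and at 5.28, 5.96, 5.29 and 5.29 in mutant mice. Mutant replicate 2 alone lay within the wild type range. The difference was -0.47 ± 0.16 (adjusted p = 0.066, limma) and -0.65 (adjusted p = 0.010) without that mouse. SAM did call *Usp53*, with a fold of 1.64. *Usp9x*, an X-linked enzyme, had -0.28 ± 0.11 (adjusted p = 0.10) and was called only without wild type replicate 3 (-0.37, adjusted p = 0.044). Its signal was close to background, with detection on 3 wild type arrays and 1 mutant array. *Usp7*, which acts on MDM2 and p53, had -0.25 ± 0.10 (adjusted p = 0.098).

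*Usp2* is of interest in the kidney because one of its isoforms acts on the epithelial sodium channel and because its transcript follows the circadian clock. Its brightest probe was at 10.86, 10.94, 11.32 and 11.07 in wild type and at 10.74, 10.86, 10.97 and 10.96 in mutant mice. The genotypes overlapped, and the difference of -0.17 ± 0.10 was not called (adjusted p = 0.28, limma). The dimmer probes had -0.36 ± 0.11 (adjusted p = 0.059) and -0.45 ± 0.17 (adjusted p = 0.094). Of 12 clock genes above background, 2 were called lower, *Per2* (-0.63 ± 0.14, adjusted p = 0.020) and *Per3* (-0.65 ± 0.14, adjusted p = 0.017), beside 7.86% of all genes, and the list had a median of -0.18. *Per1* had -0.52 ± 0.18 (adjusted p = 0.072) and was not called. The hour of dissection was not given in the sources used here, and its part in these values was not tested.

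Some members had probes that disagreed. *Usp10*, which binds the stress granule protein G3BP1, had 0.28 ± 0.11 at its brightest probe (adjusted p = 0.12) and -0.17 ± 0.09 at another (adjusted p = 0.20). At the brightest probe mutant replicate 1 was at 6.96 and the other mutants at 7.34 to 7.52, and without it the difference was 0.40 (adjusted p = 0.015). *Usp39*, a splicing factor without protease activity, had -0.22, -0.17, 0.07 and 0.22 at its 4 probes, none of them called, and at the brightest it was called without mutant replicate 4 (-0.26, adjusted p = 0.049). *Usp6nl* had -0.02 at its brightest probe and -0.37 ± 0.10 at the other (adjusted p = 0.032). With every probe counted, 4 of 21 Ube2 genes and 6 of 28 Usp genes had a probe called lower, beside 10.5% of all genes. By probe, 8 of 34 tested Ube2 probes and 7 of 40 tested Usp probes were called lower and none higher, beside 8.9% lower and 7.83% higher of all probes tested.

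**Figure D3:**
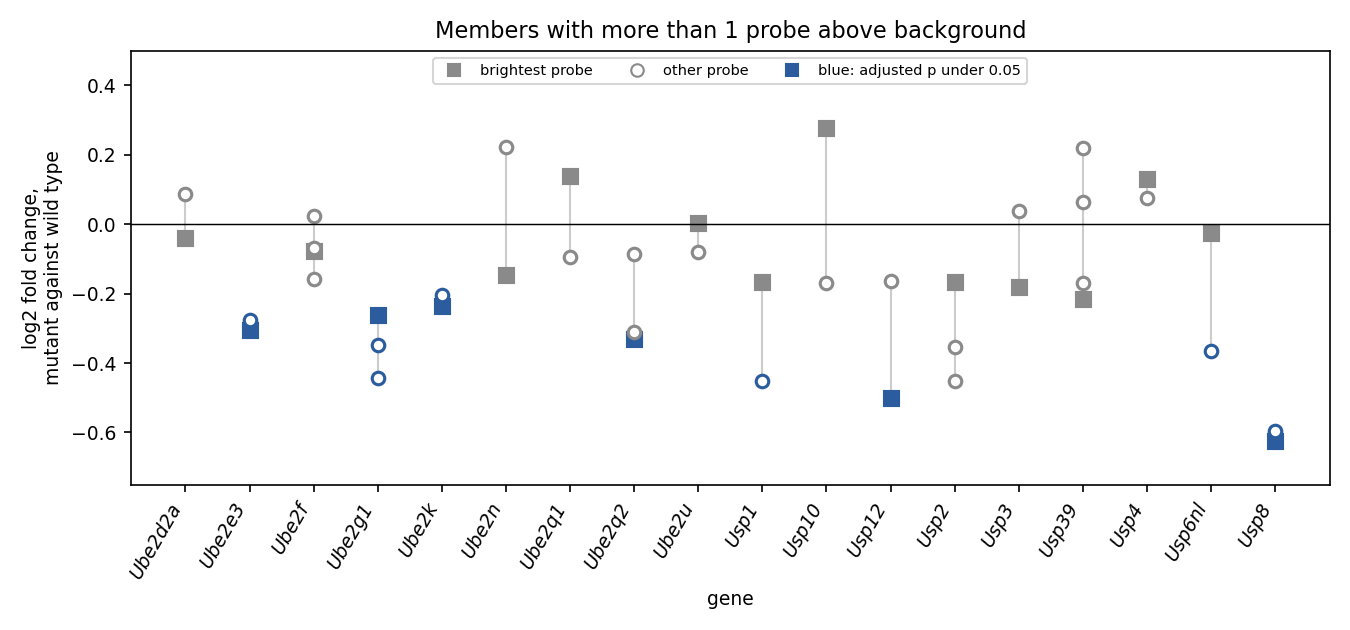
Log2 difference for each probe above background of the 18 members with more than 1 such probe; the square is the brightest probe, circles are the others, and blue marks an adjusted p under 0.05. All probes of Ube2e3, Ube2g1, Ube2k and Usp8 are blue, whereas the probes of Usp10 and Usp39 lie on both sides of 0.

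The other Usp genes above background were not called. *Usp5*, which takes apart free ubiquitin chains, had 0.17 ± 0.07 (adjusted p = 0.11), and *Usp30*, bound to the outer mitochondrial membrane, had 0.14 ± 0.06 (adjusted p = 0.10). In both every mutant was above every wild type mouse. *Usp14*, attached to the proteasome, had -0.06, and *Usp19*, *Usp25*, *Usp38*, *Usp47*, *Usp4*, *Usp28*, *Usp37* and *Usp54* lay between -0.20 and 0.13. The 17 genes not above background were *Usp11*, *Usp13*, *Usp15*, *Usp24*, *Usp27x*, *Usp43*, *Usp44*, *Usp45*, *Usp48*, *Usp49*, *Usp50* and the 6 listed as germline or testis genes, *Usp17la*, *Usp17lb*, *Usp17lc*, *Usp17ld*, *Usp26* and *Usp29*. Of these, 14 were detected on no array. Detection was confined to 1 genotype for 4 of the members not above background: *Ube2d1* on 2 mutant arrays, and *Ube2dnl2*, *Ube2g2* and *Usp45* on 1 wild type array each. Of the 49 members above background, 45 were detected on all 8 arrays, and *Ube2l6*, *Ube2s*, *Usp25* and *Usp9x* on fewer, *Usp9x* on 3 wild type arrays and 1 mutant array.

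Upstream sequences are shown for 4 of the 7 called genes with a matched promoter, to give the DNA around the starts of genes that moved in the same direction. RefSeq promoters (GRCm38.p6, 250 bases before to 50 after each start) were matched for 57 of the 72 members. Each line holds the 250 bases before the start, 5′ to 3′ on the gene's strand, and capitals mark matches on either strand to CCGGAAG (bound by ETS factors), GGGCGG (GC box), CACGTG (E-box) or the YY1 motif.
Usp8 promoter: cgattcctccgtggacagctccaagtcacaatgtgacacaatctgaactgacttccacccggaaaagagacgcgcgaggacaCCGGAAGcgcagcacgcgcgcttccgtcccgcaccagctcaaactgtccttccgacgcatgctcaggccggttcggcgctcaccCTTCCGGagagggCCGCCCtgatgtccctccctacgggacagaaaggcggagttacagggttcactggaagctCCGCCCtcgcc
Usp12 promoter: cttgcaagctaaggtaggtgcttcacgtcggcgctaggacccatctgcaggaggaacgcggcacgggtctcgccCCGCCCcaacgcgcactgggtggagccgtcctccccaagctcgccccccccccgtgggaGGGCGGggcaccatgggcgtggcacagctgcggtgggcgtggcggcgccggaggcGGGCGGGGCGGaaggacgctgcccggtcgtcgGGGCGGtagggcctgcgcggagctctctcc
Usp16 promoter: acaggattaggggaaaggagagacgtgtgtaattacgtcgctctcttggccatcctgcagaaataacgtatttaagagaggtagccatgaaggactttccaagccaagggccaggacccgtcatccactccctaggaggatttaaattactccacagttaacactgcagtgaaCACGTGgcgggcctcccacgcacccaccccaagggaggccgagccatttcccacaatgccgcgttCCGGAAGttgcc
Ube2g1 promoter: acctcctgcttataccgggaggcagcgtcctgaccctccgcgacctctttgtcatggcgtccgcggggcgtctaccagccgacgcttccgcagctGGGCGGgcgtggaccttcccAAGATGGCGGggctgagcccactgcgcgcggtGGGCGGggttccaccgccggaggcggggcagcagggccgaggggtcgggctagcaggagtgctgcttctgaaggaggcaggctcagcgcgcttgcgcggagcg

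The *Usp8* stretch lies at chr2:126707078-126707327 on the plus strand and holds 2 ETS and 2 GC box matches. The *Usp12* stretch lies at chr5:146794957-146795206 on the minus strand and holds 5 GC boxes, of which a pair overlaps. The *Usp16* stretch at chr16:87454735-87454984, plus strand, holds 1 ETS and 1 E-box match and no GC box. The *Ube2g1* stretch at chr11:72607011-72607260, plus strand, holds 2 GC boxes and 1 YY1 match. The stretches of *Ube2k*, *Ube2q2* and *Usp46*, the other called genes with a promoter, are not printed. They hold GC boxes and no ETS, E-box or YY1 match. Over the full window of 300 bases, CCGGAAG was present in 21.2% of the 66 member promoters and in 8.86% of all 32851, and GGGCGG in 71.2% and 35.7%. CACGTG was present in 7.58% and 7.15%, the YY1 motif in 3.03% and 0.852%, and the NRF1 motif in 1.52% and 0.971%. The 32851 promoters belong to 27025 genes, whether or not these were above background in kidney. Shares among genes above background were not counted, so a difference may not be particular to the families. A match describes the letters and shows neither a bound factor nor a cause.

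Genes outside the families, of the ubiquitin pathway and of ubiquitin-like proteins, moved in both directions. Their counts are to be read beside the 7.86% of all genes called lower and 8.4% called higher. *Uba1* and the listed ubiquitin genes had no probe under those names, and *Uba6* and *Uba1y* were not above background. The E1s above background therefore act on ubiquitin-like proteins, as do the E2s with other names except *Cdc34*. Of 5 activating enzymes above background, *Uba3*, the catalytic subunit of the E1 for NEDD8, was lower (-0.44 ± 0.07, adjusted p = 0.0075 by limma) and *Sae1*, of the E1 for SUMO, was higher (0.24 ± 0.06, adjusted p = 0.024). Another listed E1 gene, *Nae1*, had -0.20 ± 0.06 (adjusted p = 0.052) and was not called. Of 4 E2s with other names, *Atg3*, the E2 of the autophagy protein LC3, was lower (-0.34 ± 0.08, adjusted p = 0.025). Of 12 cullin-RING subunits, the scaffolds *Cul4a* (-0.31, adjusted p = 0.021) and *Cul5* (-0.30, adjusted p = 0.019) were called lower and none was called higher. *Skp1* had 0.17 (adjusted p = 0.062) and *Rbx1* had 0.11 (adjusted p = 0.17), and neither was called. Of 18 HECT ligases, *Smurf2* (-0.54) and *Wwp1* (-0.33) were lower and *Wwp2* (0.30), *Huwe1* (0.31) and *Hectd3* (0.27) higher. Of 27 other deubiquitinases, *Mindy2* (-0.38), *Uchl5* (-0.35), *Yod1* (-0.32) and *Atxn3* (-0.23) were lower and *Josd2* (0.34, adjusted p = 0.0079) higher. The median difference was 0.04 for the E1s, 0.01 for the E2s with other names, 0.04 for the cullin-RING subunits, -0.03 for the HECT ligases and 0.04 for the other deubiquitinases, beside -0.09 for the Ube2 genes, -0.17 for the Usp genes and 0.03 for all genes.

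The calls of *Uba3*, *Wwp1*, *Mindy2*, *Josd2*, *Per2* and *Per3* held with any 1 mouse left out. Those of the other pathway genes were each lost in at least 1 such fit. The adjusted p (limma) of the lost calls ran from 0.0504 to 0.11. Over all genes, lower calls fell from 707 to between 402 and 555 with 1 mouse left out, and higher calls from 756 to between 377 and 576. The cause of the lost calls was not tested. *Cul4a* lost its call without wild type replicate 1 (-0.29) and *Cul5* without wild type replicate 2 (-0.28). *Atg3* lost it without wild type replicate 1 (-0.30) or 2 (-0.32) or mutant replicate 1 (-0.31) or 3 (-0.29), and *Smurf2* without wild type replicate 1 (-0.48) or 2 (-0.48) or mutant replicate 1 (-0.49) or 4 (-0.45). *Sae1* lost it without wild type replicate 1 (0.21) or mutant replicate 2 (0.22) and had 0.04 (adjusted p = 0.62) as the mean of its probes, *Wwp2* without wild type replicate 1 (0.25) or mutant replicate 4 (0.27) and had 0.16 as the mean of its probes, and *Uchl5* without wild type replicate 2 (-0.34) or mutant replicate 2 (-0.31) and had -0.20 as the mean. The calls of *Huwe1*, *Hectd3*, *Yod1* and *Atxn3* were lost without any of wild type replicates 1, 2 and 3 and without mutant replicate 4, and for some of them without further mice. Over all left-out mice *Huwe1* ranged from 0.25 to 0.36, *Hectd3* from 0.23 to 0.31, *Yod1* from -0.38 to -0.25 and *Atxn3* from -0.28 to -0.20.

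Of 6 cofactors of Usp enzymes above background 1 was called, *Wdr20*. *Stam*, the endosomal partner of *Usp8*, had -0.24, and *Hgs*, which works with it, had 0.07. Neither was called. None of 4 proliferation genes above background was called either.

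**Figure D4:**
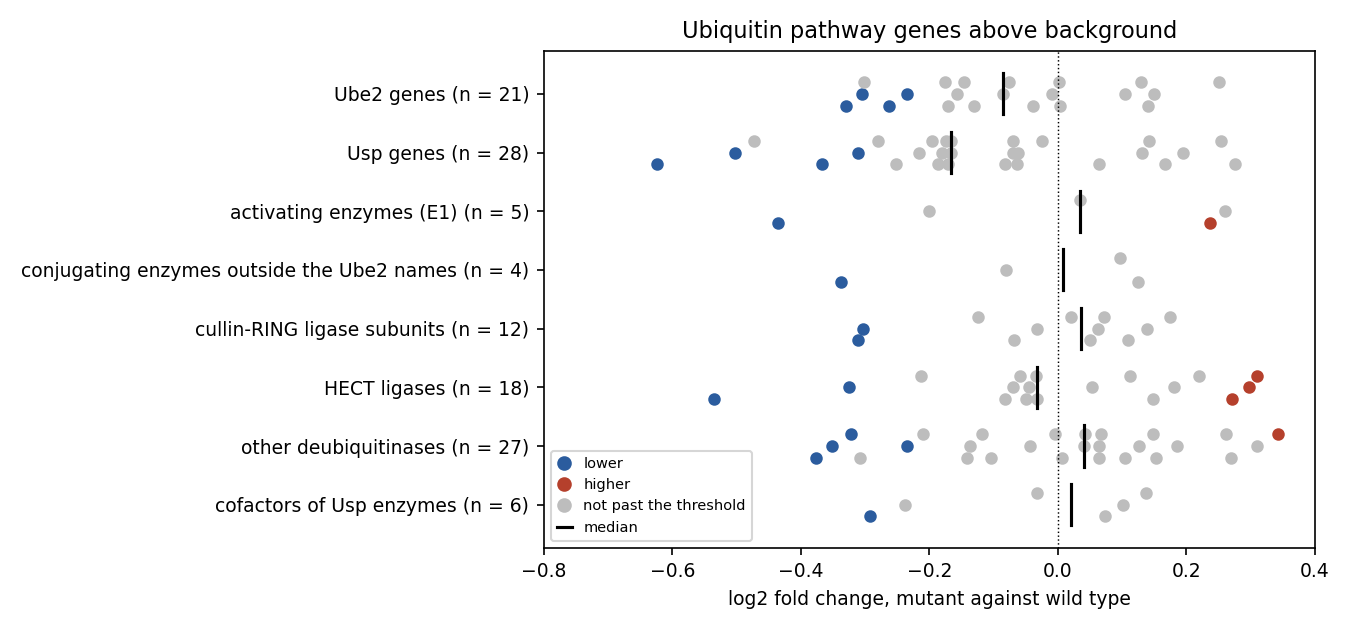
Log2 difference of each gene above background in the Ube2 and Usp families and in 6 lists of other ubiquitin and ubiquitin-like pathway genes. Black bars are medians, and blue and red points were called lower and higher. The Ube2 and Usp rows hold blue points and no red ones, as do the rows of the other conjugating enzymes, the cullin-RING subunits and the Usp cofactors, and the E1, HECT ligase and other deubiquitinase rows hold both.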

How the data were processed

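Kidney RNA of 8 mice was hybridized to Illumina Mouse Ref8 v2.0 BeadChips, 1 array per mouse, grouped by the genotype in the labels. The authors deposited scanned bead intensities with no background subtraction or normalization, a detection p-value per probe on every array, and a second table of intensity values that GenomeStudio 2011.1 had background-subtracted and normalized by cubic spline, all linear. Probes were named from the platform annotation, and gene numbers of 23962 of 23978 named probes matched the GRCm38.p6 table; 1719 probes had no gene.

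Scanned intensities were corrected from the detection p-values, offset by 16, quantile-normalized and log2-transformed (neqc, limma 3.58.1, R 4.3.3). A probe was kept if its detection p was under 0.05 for 4 or more of the 8 arrays (12914 probes, 50.3%). Genotypes were compared with lmFit and eBayes, genotype as the only term, with Benjamini-Hochberg adjustment over the probes kept. Each gene was represented by its brightest probe. Precision is limited by how many mice were measured and by signal over background, and the median SE of a log2 difference was 0.0839. SAM, the test of the study's methods, was coded anew and run as an alternative on all probes of the authors' normalized intensities, floored at 16, over all 70 arrangements of genotypes, at an FDR under 6% and a fold above 1.6. Other alternatives changed the scaling, background, filter, choice of probe, array weights and replicate block, or left out each mouse. Both procedures were tested on simulated data whose changes were all larger than those of several genes called here. The simulation therefore does not cover changes that small.

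Members and lists were chosen with earlier results of these data known. Named by rule were members with a called probe, *Usp8*, the 3 of each family with the highest signal, members whose probes differed in call or by over 0.5, and up to 4 genes of each list by smallest p. Of the list genes picked by smallest p, *Uba7*, *Cdc34*, *Ufc1*, *Atg10*, *Dmwd*, *Ifit2*, *Rsad2*, *Oas2*, *Nr1d2*, *Cenpa* and *Plk1* were not called and are given no values. *Usp53*, *Usp10*, *Usp39* and the further genes given values were added after their values were seen.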

Additional observations from a re-analysis of the deposited data

Results flagged for a closer look

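Of 98 sets of 4 mice (49 members above background, each genotype taken separately), 5 held a mouse far from the others by Dixon's criterion, and chance alone gives about 1 in 20. Wild type replicate 4 had an *Ube2b* level of 10.99 against 11.15 to 11.17 in the others. Wild type replicate 1 had a *Usp16* level of 9.41 against 9.06 to 9.11. For *Usp53*, wild type replicate 4 was at 5.67 against 5.99 to 6.04, and mutant replicate 2 was at 5.96 against 5.28 to 5.29. Wild type replicate 2 had a *Usp6nl* level of 7.70 against 7.53 to 7.55.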

How the results depend on the processing

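The calls for *Ube2e3*, *Ube2q2*, *Usp8* and *Usp12* held in all 16 limma alternatives and left-out mice, with adjusted p up to 0.044, 0.035, 0.018 and 0.034. With 1 mouse left out in turn, 3 to 4 Ube2 genes and 3 to 4 Usp genes were called lower, 0 Ube2 genes higher and 0 to 1 Usp genes higher. SAM at the thresholds of the methods called 0 Ube2 genes and 1 Usp gene lower. Without background correction 1 Usp gene was called higher, *Usp20* (0.24, adjusted p = 0.024), and 6 lower, with *Usp33*, *Usp39* and *Usp7* gained and *Usp46* lost. The mean of a gene's probes added *Usp1* (-0.31, adjusted p = 0.038). The median of the Usp genes ran from -0.17 to -0.06 over the limma settings, with -0.06 without background correction and -0.07 without the filter. The median of the Ube2 genes ran from -0.13 to -0.06, and that of all genes from 0.01 to 0.05. Mice of the same replicate number had correlations of deviations of 0.13, -0.07, -0.10 and -0.02. These lay within the range of different-number pairs, -0.19 to 0.14. So few correlations cannot show whether the mice were matched. With the replicate block 2 Ube2 genes were called lower, without *Ube2g1* (adjusted p = 0.056) and *Ube2k* (adjusted p = 0.059), and 3 Usp genes, without *Usp16* (adjusted p = 0.051). Over all genes, lower calls moved from 707 to 485 with the block, to between 402 and 555 with 1 mouse left out and to 936 without background correction. The cause of these changes was not tested.

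Of 1365 gene values under alternatives, 1235 kept sign and side of the threshold, 76 lost the call, 19 gained it and 35 changed sign, all in genes not called. With array weights *Cdc20* was 0.0029, *Ube2j2* 0.0009, *Ube2l6* -0.0429 and *Ube2u* -0.0007. With the mean of probes *Cdc20* was 0.0193, *G3bp1* -0.1888, *Ube2d2a* 0.0237, *Ube2n* 0.0386 and *Ube2u* -0.0387. Without background correction *Cdc20* was 0.0015 and *Ube2u* -0.0002. With median scaling *Ube2j2* was 0.0201 and *Usp25* 0.0002, and with the authors' intensities *Ube2l6* was -0.0363. Leaving out mice gave *Birc5* -0.1929 to 0.0712, *Cdc20* -0.1801 to 0.1886, *Ube2j2* -0.0934 to 0.0602, *Ube2l6* -0.0681 to 0.0793, *Ube2s* -0.006 to 0.2458, *Ube2u* -0.0794 to 0.0764, *Ube2z* -0.2309 to 0.045, *Usp25* -0.1465 to 0.0296 and *Usp6nl* -0.0685 to 0.0144. Low signal limits what can be said of the 23 members not above background.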

Other observations

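*Usp15*, a deubiquitinase of transforming growth factor beta signaling, was above background on no array, yet its levels were 4.64, 4.59, 4.72 and 4.71 in wild type and 4.36, 4.47, 4.42 and 4.40 in mutant mice. All mutants lay below all wild type mice, and with every probe tested regardless of signal it was called lower. *Usp13*, also detected on no array, had the same order, with 4.37 to 4.44 in wild type and 4.30 to 4.33 in mutant mice. These were 2 of the 17 Usp genes not above background, and 1.5% of all 7593 such genes had this order. No fold is given because both were at background.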
